A study of Mus musculus with 2 samples.

Results

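Myelin protein genes were examined in the optic nerves of mice with Nf1-driven optic glioma. The 8 genes were taken by symbol: Mbp, Mobp, Cnp, Mag, Mog, Mal, Cldn11 and Opalin, out of 32285 genes in each file. All 8 were listed in both files. The study profiled single cells with the 10x Genomics 5′ kit, which counts unique molecular identifiers (UMIs) per gene and cell. There were 2 libraries, 1 from mice given anti-PD-1 (labelled anti-PDCD1) and 1 from mice given anti-TIGIT, both antibodies against T cell checkpoint receptors. Both groups were Nf1-OPG mice (Nf1flox/neo; GFAP-Cre), in which a neomycin cassette disrupts one Nf1 allele and Cre driven by the GFAP promoter removes the other in neuroglial progenitors. Each library pooled the nerves of 10 mice aged 12 weeks, so the mice cannot be separated. No untreated library was analysed here, and nothing below shows an effect of either antibody against no treatment. The preparation removed debris and myelin and sorted live cells, and the protocol text also mentions dural meninges.

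Myelin is the compacted membrane that oligodendrocytes wrap around axons, and in the optic nerve it is made by oligodendrocytes that arise from oligodendrocyte precursor cells (OPCs). Its proteins have separate roles: MBP, a basic protein whose mRNA is carried into the cell processes and translated there, and MOBP compact the membrane at its cytoplasmic face. CNP keeps cytoplasmic channels open, MAG faces the axon, MOG lies on the outermost surface, claudin 11 forms the tight junctions of the sheath, MAL is a lipid raft protein of the sheath, and opalin is a glycoprotein of mature oligodendrocytes.

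The sequences just upstream of the genes are shown because the 8 genes shared oligodendrocytes as the class with their highest level. RefSeq promoters on GRCm38.p6 (250 bases before to 50 after the start) were taken for 7 of the 8 genes, all but Mbp. A SOX core (ACAAAG, or CTTTGT on the other strand) and a MYRF-type motif (CTGGCAC or CTGGTAC, both strands) were searched, since SOX10 and MYRF are regulators of myelin genes. Capitals mark the matches, and no match of one motif overlapped the other.
Mobp, chr9:120149492-120149791, plus strand: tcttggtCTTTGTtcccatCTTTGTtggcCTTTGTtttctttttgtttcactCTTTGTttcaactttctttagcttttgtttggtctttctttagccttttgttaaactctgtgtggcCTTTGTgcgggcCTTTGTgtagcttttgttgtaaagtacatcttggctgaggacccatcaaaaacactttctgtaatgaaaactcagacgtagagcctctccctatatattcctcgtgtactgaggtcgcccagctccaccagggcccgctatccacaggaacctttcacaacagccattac
Cnp, chr11:100574689-100574988, plus strand: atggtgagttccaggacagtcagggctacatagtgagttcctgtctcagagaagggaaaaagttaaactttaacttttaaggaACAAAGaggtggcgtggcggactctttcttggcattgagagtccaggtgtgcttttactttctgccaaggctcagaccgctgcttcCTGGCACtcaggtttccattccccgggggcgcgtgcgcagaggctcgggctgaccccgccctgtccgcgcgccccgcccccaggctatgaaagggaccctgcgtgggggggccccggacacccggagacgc
Mag, chr7:30914814-30915113, minus strand: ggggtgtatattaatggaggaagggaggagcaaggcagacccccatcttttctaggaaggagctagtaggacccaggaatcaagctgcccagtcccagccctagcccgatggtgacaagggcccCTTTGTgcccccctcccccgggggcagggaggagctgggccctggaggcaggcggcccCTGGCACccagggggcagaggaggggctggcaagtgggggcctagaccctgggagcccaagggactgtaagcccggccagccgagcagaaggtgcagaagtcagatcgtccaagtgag
Cldn11, chr3:31149670-31149969, plus strand: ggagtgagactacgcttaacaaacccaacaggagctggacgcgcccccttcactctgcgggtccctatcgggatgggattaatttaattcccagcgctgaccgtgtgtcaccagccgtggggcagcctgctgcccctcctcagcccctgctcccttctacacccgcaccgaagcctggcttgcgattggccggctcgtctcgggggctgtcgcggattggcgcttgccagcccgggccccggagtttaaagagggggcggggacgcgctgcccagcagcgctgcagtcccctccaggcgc
The Mobp window held 6 SOX core matches and no MYRF-type match. Of 27025 genes with a promoter in the table, 18.9% held at least 1 SOX core match and 10 held 4 or more. The Cnp and Mag windows held 1 match of each motif, the Opalin window 2 SOX cores and 1 MYRF-type match, and the Mog window 1 MYRF-type match. The Mal and Cldn11 windows held neither. A MYRF-type match was present in 6.97% of all windows. A match is a string of letters and not a shown binding site.

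On GRCm38 (GENCODE M21, the same assembly as the submitters' mm10) Mobp spans chr9:120149707-120181484, Cnp chr11:100574904-100591729, Mag chr7:30899176-30914873 and Mog chr17:37010743-37023398. Mal spans chr2:127633226-127656695, Cldn11 chr3:31149920-31164324 and Opalin chr19:41061710-41077113. The Cnp gene overlaps Dnajc7, which lies on the opposite strand, so Cnp UMIs depend on strand-aware counting, which the sources used here do not describe.

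The 2 libraries held 13997 and 7915 barcodes (median 4505 and 4082 UMIs, anti-PD-1 and anti-TIGIT in that order here and below), of which 13275 and 7495 were retained. Cell classes were set by marker gates that used none of the 8 genes. The gate for oligodendrocytes, on 11 markers such as Ermn, Aspa and Ugt8a, held 2157 and 1839 cells with median 6912 and 6349 UMIs. OPCs numbered 537 and 83, and cells with markers of newly formed oligodendrocytes 121 and 24. There were 3246 and 1414 T cells, 1391 and 429 microglia, 203 and 545 border macrophages and 243 and 100 fibroblasts. No cell passed the gate for Schwann cells, the myelinating glia of peripheral nerve. Gates left 3516 and 1967 cells without a class, and 759 and 317 cells passed more than 1 gate and were set aside. The libraries shared 149 retained barcodes, 3 of them oligodendrocytes. Each group is 1 library, so no difference between groups has a replicate check; intervals are exact 95% intervals that cover counting error only. Levels are counts per 1000000 UMIs (CPM), which are not per transcript length, and are therefore compared only within a gene.

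The bulk of 6 of the 8 genes' UMIs lay in oligodendrocytes. These cells held 80.7% and 92.0% of the Cnp UMIs of all retained cells, 84.3% and 94.8% of Mag, 86.4% and 95.3% of Mog, 86.9% and 95.9% of Mal, 85.3% and 94.8% of Cldn11 and 90.4% and 96.9% of Opalin. Mobp was less confined, with 66.9% and 83.5%, and Mbp least, with 46.9% and 69.6%. Further Mbp UMIs were in immune cells (24.2% and 13.8%), in the OPC and newly formed gates (2.98% and 0.52%), in cells without a class (16.1% and 11.2%) and in cells of more than 1 gate (8.51% and 4.10%).

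**Figure D1:**
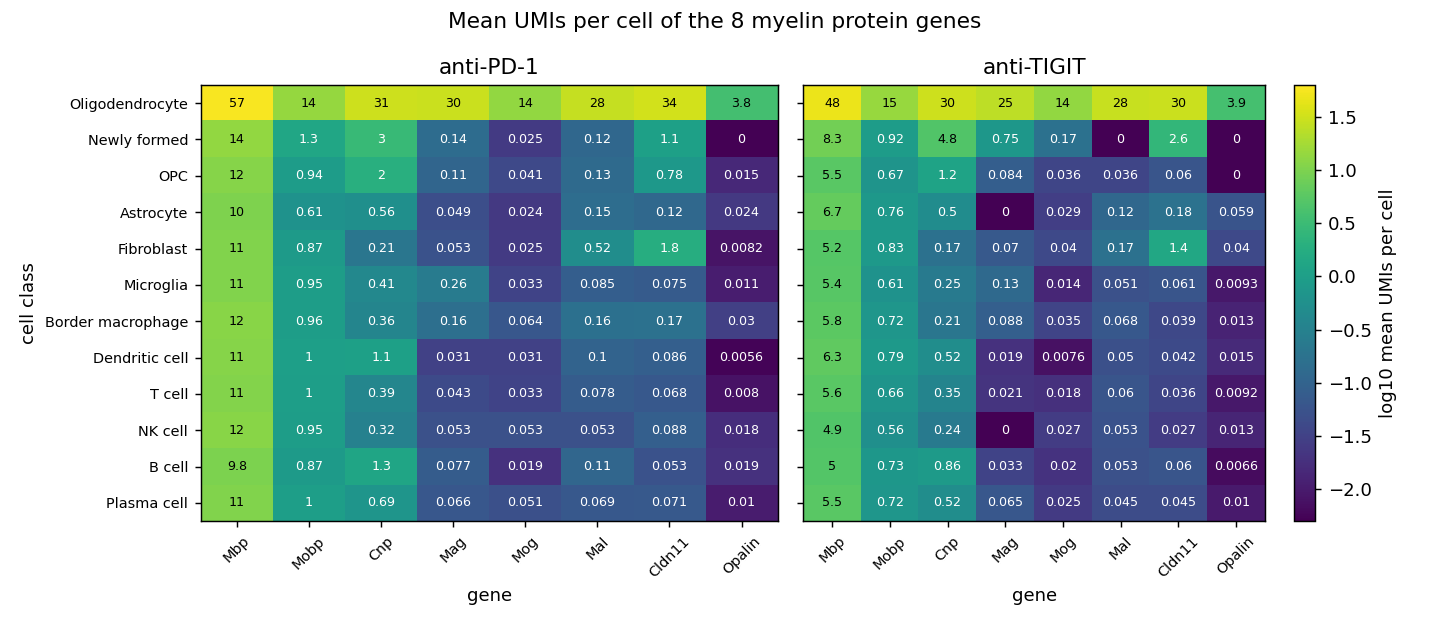
Mean UMIs per cell of each gene (columns) in each cell class (rows) and library, coloured on a log10 scale. Outside oligodendrocytes Mbp kept a nearly even colour within each library (9.85 to 11.6 and 4.88 to 6.25 UMIs per cell in immune classes), while Mag, Mog, Mal and Opalin were below 1.

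In oligodendrocytes the 8 genes differed little between the libraries. Together they made up 2.76% (2.75 to 2.77) and 2.67% (2.66 to 2.68) of oligodendrocyte UMIs. None of the 8 was 2-fold apart in CPM + 5, where 1.48% of 14840 tested genes were. Dividing anti-PD-1 by anti-TIGIT gave a median log2 ratio of -0.05, beside -0.01 for all tested genes.

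The compaction genes moved apart. Mbp stood at 7475 and 6550 CPM, a log2 ratio of 0.19 (0.18 to 0.20). Mobp stood at 1814 and 2047 CPM, a ratio of -0.17 (-0.20 to -0.15). With the mean UMIs of a T cell taken from each oligodendrocyte, the Mbp ratio was 0.06 and that of Mobp -0.22. Mbp was thus the higher in the anti-PD-1 library by an amount that depended on this subtraction, and Mobp the lower.

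Of the genes of the axon side, channels and outer surface, Mag was higher in the anti-PD-1 library, at 3869 and 3434 CPM (0.17, 0.15 to 0.19). Cnp was at 4074 and 4180 CPM (-0.04, -0.05 to -0.02). Mog was at 1806 and 1899 CPM (-0.07, -0.10 to -0.05). These shifts were small beside a 2-fold change.

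Cldn11, the junction gene, was at 4389 and 4144 CPM (0.08, 0.07 to 0.10). Its direction was lost with cells thinned to 1000 UMIs (-0.0092) or weighted equally (-0.0072). Mal was at 3647 and 3901 CPM (-0.10, -0.11 to -0.08). Opalin was at 496 and 534 CPM (-0.11, -0.15 to -0.06). In all, 3 of the 8 intervals lay above 0 and 5 below 0. At these counts an interval left out 0 even at a ratio of -0.04 (Cnp). The share of all genes whose interval left out 0 was not taken, here or for the interval counts below. Such counts are therefore not read as a trait of the listed genes.

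**Figure D2:**
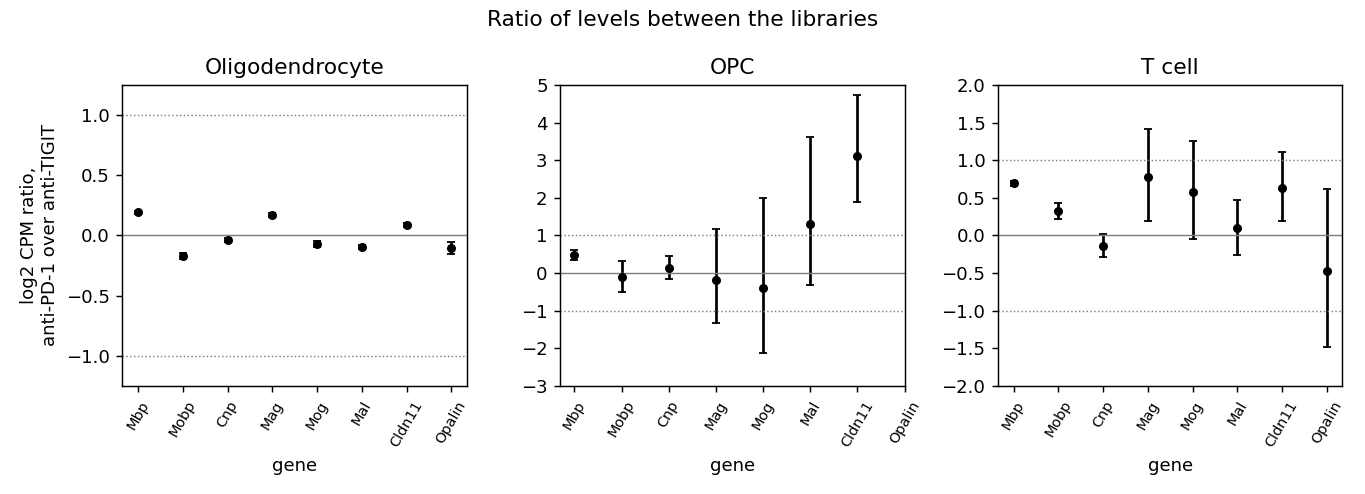
Log2 ratio of CPM, anti-PD-1 over anti-TIGIT, for each gene in oligodendrocytes, OPCs and T cells; points are the ratios, bars the exact 95% intervals of counting error, dotted lines a 2-fold difference. Every oligodendrocyte value lies between -0.17 and 0.19, while in OPCs Cldn11 stands at 3.11; Opalin in OPCs, at 8 and 0 UMIs, has no point.

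Other myelin genes moved over a wider range. Of 22 such genes, 11 intervals lay above 0, 7 below and 4 held 0, with a median log2 ratio of 0.04 and none 2-fold apart. Cd9, a tetraspanin named here after its value was seen, was the farthest from 0, at 767 and 404 CPM (0.93, 0.88 to 0.97). Trf, which encodes transferrin, was at 13671 and 10346 CPM (0.40). Of 10 regulators of the lineage, 1 was 2-fold apart: Zfp488, a transcriptional regulator of oligodendrocyte differentiation, at 34.4 and 12.6 CPM (1.45, 1.20 to 1.71). Across 22 points of class and library, genes whose log2(CPM + 5) was most like that of the sum of the 8 included Qdpr (Pearson r 0.97), Adipor2 (0.94), Josd2 (0.94) and Sept4 (0.93), a description over points that share libraries.

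Single oligodendrocytes nearly all held most of the 8 transcripts. With each cell thinned to 1000 UMIs, a mean of 6.82 and 6.81 of the 8 genes were seen per oligodendrocyte, and 91.1% and 90.9% of them held 6 or more. Mbp was seen in 99.8% and 99.3% of thinned oligodendrocytes, Cnp in 96.4% and 94.2% and Mag in 96.0% and 94.2%. Thinned T cells showed Mbp in 77.3% and 66.9%. Opalin was seen in 37.9% and 37.3%. The share for Opalin was close to equal in both libraries, although the cells were taken at the same depth only after thinning and 37 and 14 shallower cells were left out.

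Mobp and Mog, by contrast, were each missed in part of the thinned cells. Mobp was seen in 80.8% (79.1 to 82.5) and 85.3% (83.6 to 86.9) and Mog in 80.9% (79.2 to 82.6) and 83.7% (81.9 to 85.3). Without thinning Mobp was seen in 98.5% and 99.2% of oligodendrocytes and in 49.7% and 40.0% of T cells, while Mog was seen in 96.2% and 98.1% of oligodendrocytes and in 2.99% and 1.77% of T cells. A Mobp UMI alone therefore did not mark an oligodendrocyte in these libraries. Neither did an Mbp UMI, seen without thinning in 94.3% and 88.0% of T cells. Mbp had a median of 8 and 7 UMIs per thinned oligodendrocyte, with the central 80% of cells between 4 and 14 and between 3 and 11. Its variance was 2.37 and 1.84 times its mean, against 1.13 and 1.22 times for Mog, where pure counting noise gives a ratio near 1. Where cells differ, this ratio rises with the mean, which was 8.42 and 6.96 UMIs for Mbp and 1.77 and 1.96 for Mog. The 2 genes are therefore not on an equal footing. With anti-TIGIT the ratio was higher for Mal (1.89) and Cldn11 (1.86) than for Mbp. Opalin was at 1.56 and 1.70, with means of 0.61 and 0.67 UMIs.

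The genes varied together to different degrees from cell to cell. At 2000 UMIs per cell (1959 and 1776 oligodendrocytes), Spearman coefficients over the 28 pairs ran from -0.06 to 0.33 (anti-PD-1) and from -0.00 to 0.45 (anti-TIGIT). Mal with Opalin was the highest pair in both libraries (0.33 and 0.45), followed by Mal with Cldn11 (0.27 and 0.40). Mag with Mbp was near 0 (-0.03 and 0.02). All pairs share a cell's total and each count carries its own counting noise, so the coefficients describe these cells only.

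Splits of the oligodendrocytes by genes outside the set moved the members unequally. In each library cells with at least 1 Serpina3n or C4b UMI at 1000 UMIs, 2 genes of the reactive glial response, were compared with the rest; they were 48.5% and 28.6% of oligodendrocytes and were deeper (median 7590 against 6386 UMIs, and 6894 against 6200). Cldn11 was higher in the Serpina3n or C4b cells in both libraries, by a log2 of 0.35 (0.33 to 0.37) and 0.22 (0.20 to 0.25). Mag and Opalin were also higher in both, by 0.18 and 0.09 for Mag and by 0.19 and 0.09 for Opalin. Mal differed in direction between the libraries, at -0.25 and 0.05, as did Cnp (-0.13 and 0.05) and Mbp (-0.07 and 0.04). Mobp was at -0.18 and 0.01 and Mog at -0.14 and 0.03, with anti-TIGIT intervals that held 0. The difference between libraries was not tested.

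Cells were also split by summed B2m, H2-K1 and H2-D1 UMIs, the chain and heavy chains of class I MHC, at the median of each library (2 UMIs in the anti-PD-1 library and 0 in the anti-TIGIT library, so the split is not the same cut). In the anti-PD-1 library cells above the median had more Opalin (log2 0.39, 0.33 to 0.46) and less Mal (-0.37, -0.39 to -0.34). In the anti-TIGIT library these were 0.08 and -0.01. Cldn11 was higher above the median in both, by 0.23 and 0.11.

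**Figure D3:**
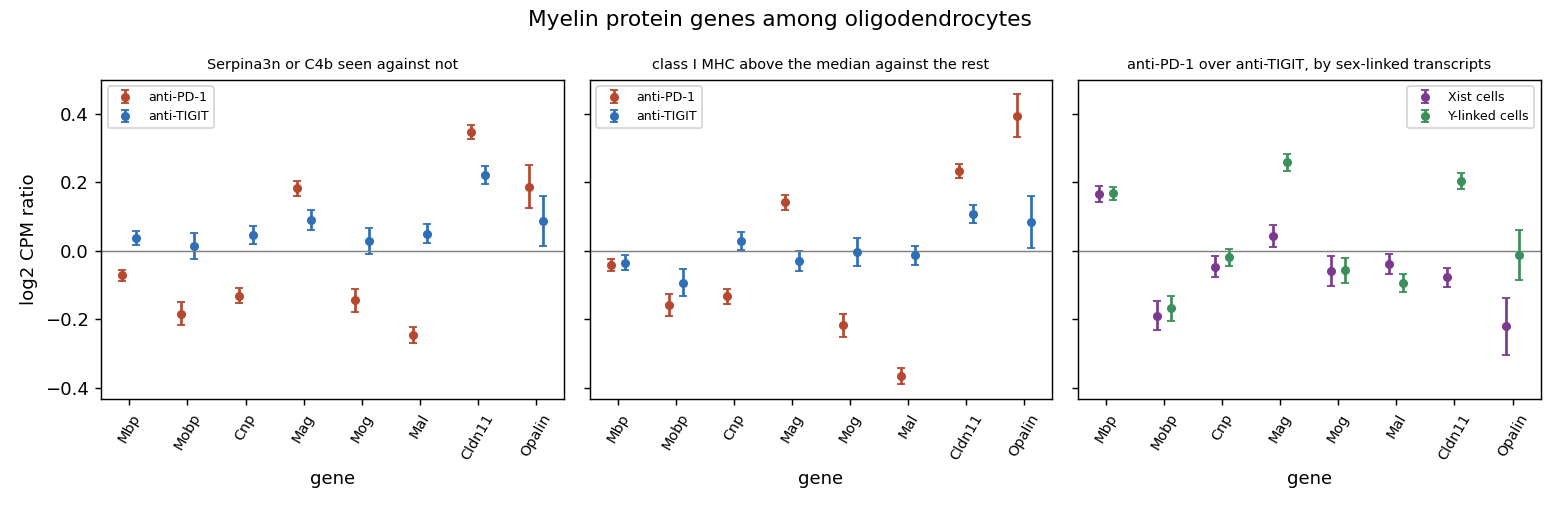
Log2 CPM ratios of the 8 genes among oligodendrocytes with 95% intervals of counting error: cells with Serpina3n or C4b against the rest, cells above the median class I MHC count against the rest, and anti-PD-1 over anti-TIGIT in Xist cells and in cells with Y-linked UMIs. Cldn11 is above 0 in all 4 splits of the first 2 panels and on opposite sides of 0 in the third.

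The pooled mice were of both sexes, as cells carried Xist or Y-linked transcripts, and the ratio between libraries was taken within each. For Mbp it was 0.17 in Xist cells and 0.17 in Y-linked cells, and for Mobp -0.19 and -0.17. Mag was 0.04 (0.01 to 0.08) in Xist cells and 0.26 (0.23 to 0.28) in Y-linked cells. Cldn11 was -0.08 (-0.11 to -0.05) in Xist cells and 0.20 (0.18 to 0.23) in Y-linked cells. The Mbp and Mobp ratios thus held in both sexes, and the Cldn11 ratio changed sign. Within each library Mal was higher in Xist than in Y-linked oligodendrocytes, by 0.33 and 0.28, and Opalin by 0.10 and 0.31.

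OPCs held Mbp at 11.5 and 5.54 UMIs per cell, 1.05 and 0.98 times the level of T cells in the same library. Mobp was at 0.94 and 0.67 UMIs per cell, also 0.94 and 1.02 times the T cell level. Neither gene was thus clearly above the T cell level in OPCs. Cnp was above it, at 1.96 and 1.19 UMIs per cell, 5.09 and 3.39 times the T cell level. Mag was at 2.58 and 4.11 times the T cell level, and Cldn11 at 11.5 and 1.67 times, the last on 5 UMIs. Counts of the later genes in OPCs were low: Mag 59 and 7, Mog 22 and 3, Mal 71 and 3, Opalin 8 and 0. Oligodendrocyte CPM was 200- and 155-fold higher for Mag and 250- and 200-fold higher for Mog.

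Between the libraries, OPC intervals of Mbp and Cldn11 lay above 0 and those of the other 5 members with at least 10 counts held 0. Mbp was at 2037 and 1458 CPM (log2 0.48, 0.35 to 0.62), beside 0.69 in T cells. Cldn11 was at 137 and 15.8 CPM (3.11, 1.88 to 4.74), a ratio that rests on 417 and 5 UMIs. It was the 1 of 7 members that was 2-fold apart, where 11.4% of 12818 genes were, a share near that of the members. Cldn11 was seen in 10.3% (7.88 to 13.2) of 532 thinned anti-PD-1 OPCs and in 1.23% (0.03 to 6.69) of 81 anti-TIGIT OPCs; T cells of the same libraries gave 1.87% and 1.29%. Without thinning the shares were 33.7% and 4.82% of OPCs and 5.61% and 3.54% of T cells. The median depth was 5486 and 4021 UMIs in OPCs and 3337 and 2835 in T cells, and the 11 oligodendrocyte markers came to 1.28 and 0.96 UMIs per OPC against 0.36 and 0.22 per T cell. In Xist OPCs (142 and 32 cells) the ratio was 1.28 (-0.14 to 3.21). In Y-linked OPCs 169 UMIs from 177 cells stood against 0 from 24 cells, with a lower bound of 1.96 for the log2 ratio. With cells of more than 1 gate kept, the ratio in CPM + 5 was 0.70 instead of 2.77, under the 2-fold size. Whether oligodendrocyte RNA in the OPC barcodes took part was not tested.

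A further gate asked for markers of newly formed oligodendrocytes such as Gpr17 and Bcas1 and held 121 and 24 cells. These cells carried 2449 and 3112 CPM of that panel but 10623 and 10709 CPM of the OPC panel, which was at 7953 and 11683 CPM in the OPC class, so they are described only as cells of this gate. Their Cnp was at 2.95 and 4.79 UMIs per cell, their Cldn11 at 1.08 and 2.58 and their Mag at 0.14 and 0.75. A single anti-TIGIT cell gave 66 of the 115 Cnp UMIs, 56 of the 62 Cldn11 UMIs and all 18 Mag UMIs. Without the cell that held most of the gene in each library, Cnp was at 2.78 and 2.13 UMIs per cell and Cldn11 at 1.02 and 0.26. With so few cells no ratio between libraries was taken. No Opalin UMI was seen in these cells; the floor of 3 cells is 2.48% and 12.5% of cells with a UMI, which limits detection and not expression. Astrocytes (41 and 34 cells) held Mbp at 10.0 and 6.68 UMIs per cell.

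Fibroblasts held Cldn11 at 223 and 241 CPM, 1.77 and 1.44 UMIs per cell against 0.07 and 0.04 in T cells. Mal in fibroblasts was at 65.5 and 28.5 CPM (log2 1.20, 0.47 to 2.03), the 1 member of 7 that was 2-fold apart there, where 5.08% of genes were. Mag was higher in microglia and border macrophages than in T cells, at 0.26 and 0.13, 0.16 and 0.09, and 0.04 and 0.02 UMIs per cell. It was seen in 4.89% and 2.48% of thinned microglia and in 3.28% and 2.94% of border macrophages, against 1.12% and 0.43% of T cells. Cnp stood out in B cells, at 1.30 and 0.86 UMIs per cell against 0.39 and 0.35 in T cells, and in 22.1% and 23.1% of thinned B cells against 8.96% and 9.44% of T cells.

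Immune cells do not make myelin, yet each immune class held Mbp and Mobp at a similar number of UMIs per cell, while Cnp (0.32 to 1.30 with anti-PD-1) and Mag (0.03 to 0.26) varied more. Over 7 immune classes Mbp ranged from 9.85 UMIs per cell (B cells) to 11.6 (NK cells) with anti-PD-1, and from 4.88 (NK cells) to 6.25 (dendritic cells) with anti-TIGIT. The median depth of those classes ran from 3241 to 14770 and from 2719 to 15859 UMIs. Mbp CPM therefore ran from 703 in plasma cells to 3049 in NK cells with anti-PD-1, and from 341 to 1658 with anti-TIGIT, in the same 2 classes. The number of Mbp UMIs, not their share, was close to common to the classes; whether they were free RNA from lysed cells was not tested.

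**Figure D4:**
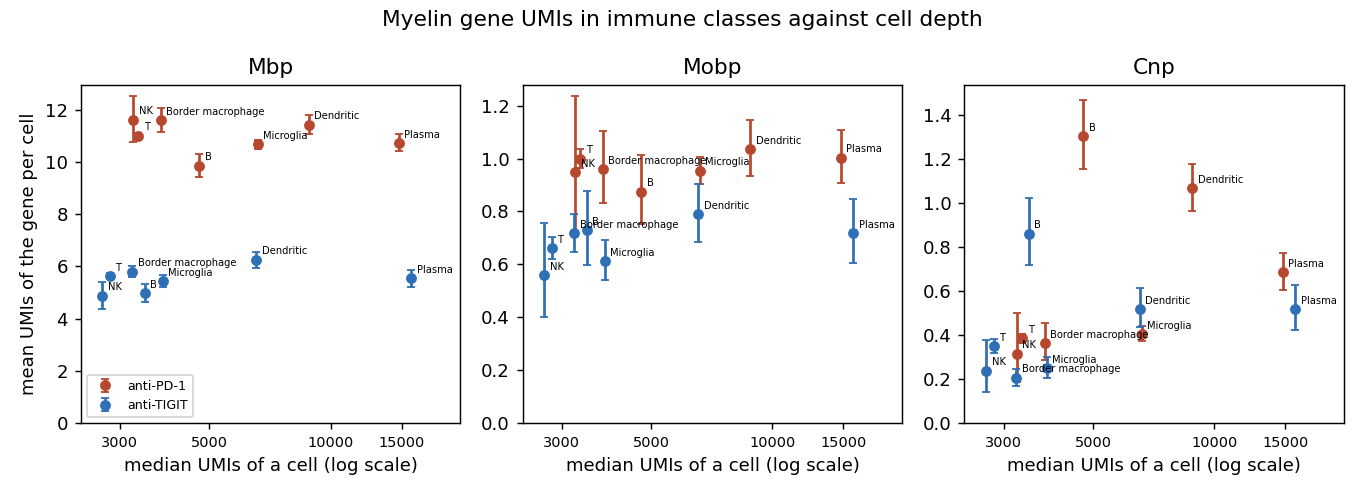
Mean UMIs per cell of Mbp, Mobp and Cnp (vertical axes) against the median UMIs of a cell (log scale) in 7 immune classes of each library; bars are exact 95% Poisson intervals. Mbp and Mobp lie on 2 flat levels, 1 per library, whereas Cnp is higher in B, dendritic and plasma cells.

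The same held among T cells cut into 3 equal groups by depth. Mbp was 9.93, 11.1 and 12.0 UMIs per cell at median depths of 2001, 3336 and 6004 UMIs in the anti-PD-1 library. It was 4.96, 5.60 and 6.33 at 1852, 2832 and 4557 UMIs in the anti-TIGIT library. Depth rose by far more than Mbp, and Mbp CPM fell from 5128 to 1675 and from 2759 to 1120.

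The make-up of these UMIs differed from that of oligodendrocytes. Mbp was 27.1% and 24.5% of the UMIs of the 8 genes in oligodendrocytes and 87.2% and 83.0% in T cells. Mbp UMIs per Mobp UMI were 4.12 (4.07 to 4.17) and 3.20 (3.16 to 3.24) in oligodendrocytes, against 11.0 (10.6 to 11.4) and 8.51 (7.96 to 9.12) in T cells, 11.2 and 8.88 in microglia and 12.3 and 8.21 in OPCs. Set against the 11 oligodendrocyte markers of the same cells, T cells held 3051 and 2535 Mbp UMIs per 100 marker UMIs and oligodendrocytes 72.7 and 62.2, a log2 ratio of 5.39 and 5.35. The same log2 ratio was 3.97 and 3.94 for Mobp. Mag (-1.68 and -1.82), Mog (-0.93 and -1.12) and Cldn11 (-1.18 and -1.28) were negative. The oligodendrocyte gate asked for at least 8 UMIs of these markers, and T cells passing it were left out, so the gating enters these ratios. Taken singly, the 11 markers ran from -2.49 (Gpr37) to 1.02 (Ppp1r14a) with anti-PD-1. With anti-TIGIT they ran from -1.73 (Gpr37) to 0.996 (Ppp1r14a). Mog and Cldn11 lay within these ranges, as did Mag with anti-PD-1, while Mag with anti-TIGIT lay just below. Mal (-0.72 and -0.45) and Opalin (-1.12 and -0.29) also lay within them. Mbp and Mobp lay above them, as did Cnp (1.43 and 1.99). Gene-level UMIs do not separate golli transcripts of the Mbp gene, known from mouse immune cells, from those of myelin Mbp.

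**Figure D5:**
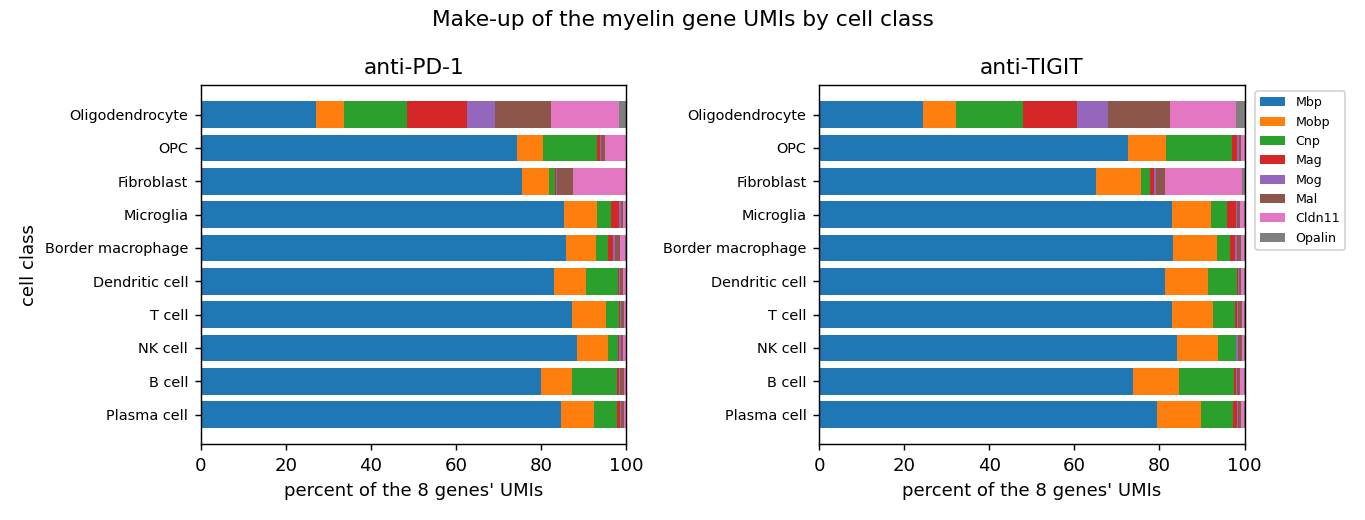
Share of the UMIs of the 8 genes (percent) that each gene supplied, by cell class and library, for the 10 classes with at least 50 cells in both. Mbp supplies 27.1% and 24.5% in oligodendrocytes and 65.2% to 88.4% in the other classes, with the largest Cldn11 share outside oligodendrocytes in fibroblasts.

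T cell Mbp was higher in the anti-PD-1 library, at 2644 against 1636 CPM (log2 0.69, 0.66 to 0.73), in Xist cells (0.72) and in Y-linked cells (0.66) alike. Mobp was at 240 and 192 CPM (0.32, 0.22 to 0.43) and Cnp at 92.6 and 102 CPM (-0.14, -0.29 to 0.01). Members with at least 10 counts numbered 8 in T cells and in microglia, 7 in dendritic cells, 6 in B cells and 3 in NK cells. None of these was 2-fold apart in T cells or microglia, where 1.46% and 3.05% of genes were. Nor was any in dendritic cells (2.98%), B cells (7.51%) or NK cells (12.9%). Mbp in plasma cells (703 and 341 CPM, log2 1.04) and Cldn11 in border macrophages (41.4 and 10.6 CPM, log2 1.96) were 2-fold apart, where 2.05% and 2.75% of genes were. The Cldn11 ratio rests on 35 and 21 UMIs (1.14 to 2.82). In border macrophages the median member ratio was 0.56, beside -0.05 for all tested genes. Per cell, plasma cells held 10.7 and 5.54 Mbp UMIs, beside 9.85 to 11.6 and 4.88 to 6.25 over the 7 immune classes. Microglia, with a log2 CPM ratio of 0.12, held 10.7 and 5.44. The call in CPM thus did not set plasma cells apart in Mbp UMIs per cell.

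The level in T cells bears on the oligodendrocyte values. It came to 19.2% and 11.8% of the Mbp UMIs per oligodendrocyte and to 7.18% and 4.44% of Mobp, but to at most 1.23% for the other 6 genes. With the microglia mean taken away in place of the T cell mean, the Mbp ratio was 0.07 and that of Mobp -0.22.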

How the data were processed

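The deposited matrices hold UMI counts per gene and barcode for 2 libraries, 1 per treatment; per the file headers they were made with Cell Ranger 8.0.0 (anti-PD-1) and 8.0.1 (anti-TIGIT), and the submitters' processing notes name mm10. How the authors chose barcodes, and whether counting used strand, is not given in the sources used here. Barcodes with under 200 genes or over 10% mitochondrial UMIs were left out, and Scrublet (scanpy 1.11.5) removed 576 of 13851 and 155 of 7650 cells as doublets. Cells were gated by summed marker UMIs and the number of markers seen, and cells passing more than 1 gate were left out; gate minimums were set after seeing the marker panels, not the member values. UMIs were summed per class and library. With 1 library per group no test was made: ratios carry exact conditional binomial 95% intervals, levels exact Poisson intervals and shares Clopper-Pearson intervals, all for counting error only, and PCR, dissociation and mice are not in them. Called means at least 2-fold in CPM + 5, among genes with at least 10 counts. A floor of 3 counts stands for 0. The ratio and interval code was tested on simulated data. Members and lists were chosen with earlier results of these data known. Named genes are the 8 members, the 2 other myelin genes of highest level and any at least 2-fold apart, regulators at least 2-fold apart, and the 5 genes most like the members' sum. A gene that this rule names is not reported here. Genes that define gates and splits are named for that use, and examples among comparisons of classes were chosen after their values were seen. Alternatives covered doublets, filters, gate minimums, cells of more than 1 gate, scaling, thinning to 1000 UMIs, pseudocounts, sex and subtraction of the T cell level. Analyses used Python 3.11.15, numpy 2.4.6, scipy 1.17.1 and pandas 2.3.3.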

Additional observations from a re-analysis of the deposited data

Results flagged for a closer look

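Several members differed in one direction in oligodendrocytes and in the other in another class, which was not tested as a difference. Mobp, at -0.17 in oligodendrocytes, had a log2 ratio (anti-PD-1 divided by anti-TIGIT) of 0.32 in T cells and 0.57 in plasma cells. Cnp, at -0.04 in oligodendrocytes, was at 0.62 in border macrophages, 0.49 in plasma cells and 0.58 in dendritic cells. Mal, at -0.10 in oligodendrocytes, was at 1.20 in fibroblasts and 1.06 in border macrophages. Among oligodendrocytes, Cldn11 was at -0.078 in Xist cells and 0.20 in Y-linked cells.

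Barcodes with under 200 genes, which entered no comparison, also held myelin UMIs. In 39 such anti-PD-1 barcodes Mbp was at 6001 CPM and Mobp at 766 CPM, and in 89 anti-TIGIT barcodes at 1746 and 202 CPM. As numbers, these barcodes held 415 and 442 Mbp UMIs among 69160 and 253092 UMIs of all genes. T cells held 11.0 and 5.63 Mbp UMIs per cell. The CPM values are shares of all UMIs and not numbers per barcode. Mbp was 86.8% of the UMIs of the 8 genes in both, beside 87.2% and 83.0% in T cells and 27.1% and 24.5% in oligodendrocytes. The floor of 3 counts is 43.4 and 11.9 CPM in these barcodes.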

How the results depend on the processing

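Each group is 1 library of pooled mice, so library, pool and antibody cannot be told apart, and anti-TIGIT OPCs and newly formed cells are few. No paired analysis was possible because each group has 1 library. No alternative moved a member past a 2-fold difference in oligodendrocytes, where the largest single ratio was 0.29 for Mbp with each cell weighted equally. Of 136 single-member alternatives there, 3 changed sign, all for Cldn11 (Xist cells only, thinned cells, cells weighted equally). In the alternative that allowed 20% mitochondrial UMIs the added cells had no doublet score. Among ratios of single members in oligodendrocytes, OPCs and T cells, 71 alternatives moved out of the counting interval and 295 did not, and they are not listed. Values of the main set results that moved by more than their counting interval follow. The cause was not tested. The oligodendrocyte median ratio of -0.05 became -0.10 with cells of more than 1 gate kept, -0.084 with cells weighted equally and -0.016 in Y-linked cells. The T cell median ratio of 0.32 became 0.043 in Y-linked cells. The share of oligodendrocyte UMIs, 2.76% and 2.67%, became 2.74% and 2.65% without doublet removal, 2.74% and 2.69% with gate minimums doubled, 2.77% and 2.66% with them halved, and 2.65% and 2.65% with cells of more than 1 gate kept. It was 2.84% and 2.78% after thinning, 2.87% and 2.78% with cells weighted equally, 2.84% and 2.74% over UMIs of other genes, 2.80% and 2.80% in Xist cells and 2.66% and 2.52% in Y-linked cells. Subtracting the T cell level gave 2.59% and 2.58%, subtracting the microglia level 2.59% and 2.58%, and the stricter cell filter on genes and mitochondrial UMIs gave 2.70% for anti-TIGIT. Mbp per marker UMI in T cells over oligodendrocytes, log2 5.39 and 5.35, became 5.42 and 5.41 with gate minimums doubled, 5.45 and 5.41 with them halved, 4.87 and 4.85 with cells of more than 1 gate kept, 5.21 and 4.76 in Xist cells, 5.68 and 5.48 in Y-linked cells and 5.49 and 5.46 without Anln. For anti-PD-1 it was also 5.18 after thinning and 5.20 with cells weighted equally. Leaving out Anln and subtracting the microglia level were chosen after seeing the data.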
